A study of Mus musculus with 12 samples.

Results

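The adipocyte genes described here are 10 genes that fat cells express and most other cells of skin do not: Adipoq, Lep, Retn and Cfd, whose products are secreted, Plin1, Plin4 and Cidec, whose products coat or fuse lipid droplets, Lipe, a lipase, Fabp4, a fatty acid carrier, and Pparg, a transcription factor. They were chosen by symbol, and all 10 were found among the 23234 symbols listed in each library. RNA of whole mouse ear skin was sequenced in 12 libraries, in 4 groups of 3. The wild type groups were C57BL/6J mice aged 8 to 12 weeks. Their ears were left untreated (WT_untreated), taken 1 day after PBS, a salt buffer (WT_PBS), or taken 1 day after Oxarol (WT_Oxarol), an ointment of which 100 mg held 2.5 µg of maxacalcitol, an analog of active vitamin D. The fourth group, of the same age range, was labelled K5-Cre;VDR f/f and also taken 1 day after Oxarol (VDRcKO_Oxarol). There, Cre driven by the keratin 5 promoter, active in basal keratinocytes, is meant to delete floxed Vdr, the vitamin D receptor gene; keratin 5 is not a gene of fat cells. This genotype had no untreated or PBS group among the libraries, its strain background is not given, and PBS is not the base of the ointment. Genotype and strain therefore cannot be told apart in comparisons with VDRcKO_Oxarol. All libraries of this group also fall in the second series of library codes, described below, and had the lowest estimated depth. Whether each library stands for its own animal is left unsaid in the labels, so p-values measure the spread between libraries only, which may be technical.

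White adipocytes store triglyceride in one large droplet guarded by perilipin, release fatty acids when lipases such as hormone-sensitive lipase are activated, and secrete hormones. PPARγ drives their differentiation together with C/EBP proteins and keeps many of the other genes switched on. In skin, adipocytes lie below the dermis, and their layer thickens and thins with the hair cycle. In whole-tissue RNA, fewer fat cells and less RNA per fat cell cannot be told apart.

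The promoters of Adipoq, Lep, Plin1 and Cfd are shown for 2 reasons. Cfd had the highest correlation with Adipoq over the libraries (Pearson's r = 0.99), although its proportion to Adipoq ran from 3.74 to 8.01. The proportions of Lep and Plin1 to Adipoq differed between groups. Each line holds the 250 bases before the start site in RefSeq's mouse assembly GRCm38.p6, read 5′ to 3′ along the gene; the deposited values were made on the older build mm9, and no coordinate was carried between the builds. Capitals mark matches on either strand to CCAAT or to TTGCNNAA, a motif of the kind bound by C/EBP factors. The windows are chr16:23146286-23146535 on the plus strand for Adipoq, chr6:29059971-29060220 on the plus strand for Lep, chr7:79732777-79733026 on the minus strand for Plin1 and chr10:79890603-79890852 on the plus strand for Cfd.
Adipoq: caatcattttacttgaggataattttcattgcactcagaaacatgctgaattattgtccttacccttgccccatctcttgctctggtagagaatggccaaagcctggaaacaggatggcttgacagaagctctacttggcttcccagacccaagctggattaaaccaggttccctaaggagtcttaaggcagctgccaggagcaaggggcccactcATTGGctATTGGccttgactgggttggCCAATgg
Lep: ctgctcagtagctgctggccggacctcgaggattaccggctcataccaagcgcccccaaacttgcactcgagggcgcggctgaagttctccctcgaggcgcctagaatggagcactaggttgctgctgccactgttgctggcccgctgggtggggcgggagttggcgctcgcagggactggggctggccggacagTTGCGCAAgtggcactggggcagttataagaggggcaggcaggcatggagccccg
Plin1: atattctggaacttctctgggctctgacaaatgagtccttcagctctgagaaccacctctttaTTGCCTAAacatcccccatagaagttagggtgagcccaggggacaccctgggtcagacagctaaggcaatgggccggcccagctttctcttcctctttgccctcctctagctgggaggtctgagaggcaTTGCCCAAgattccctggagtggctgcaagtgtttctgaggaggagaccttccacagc
Cfd: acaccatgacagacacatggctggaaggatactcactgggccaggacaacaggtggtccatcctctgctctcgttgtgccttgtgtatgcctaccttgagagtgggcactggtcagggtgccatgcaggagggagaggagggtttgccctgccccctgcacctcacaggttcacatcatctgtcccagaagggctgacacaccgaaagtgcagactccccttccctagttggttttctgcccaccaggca
Windows were found for 9 of the 10 genes, with 13 start sites in all; Fabp4 has none. TTGCNNAA stood in windows of Lep, Plin1, Cidec and Pparg, and in 9.56% of all 32851 windows of this length. CCAAT stood in those of Adipoq, Plin4 and Pparg, and in 33.9% of all. AGGTCA, the core hexamer of nuclear receptor sites, stood only in Pparg windows among these genes and in 14.0% of all. The core promoter motif TATAAA also stood only in a Pparg window among them, and in 12.4% of all. No window of these genes held 2 exact copies of AGGTCA with 1 base between them, the repeat bound by PPARγ with RXR, or with 3 bases between them, the repeat bound by the vitamin D receptor with RXR; such exact matches stood in 0.0335% and 0.00609% of all windows. The motifs do not overlap one another in the 4 windows shown. A match describes the letters only, and gene-level values do not tell which Pparg, Cidec or Lipe start was used.

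Levels are in FPKM, a count of sequenced fragments scaled by transcript length and by the size of the library. The check of the labels gave mixed values. Vdr lay between 4.87 and 10.1 FPKM in the 9 wild type libraries and between 18.0 and 25.0 FPKM in the libraries labelled VDRcKO_Oxarol, which is not a lower level; a gene-level value does not show which exons were read, so it cannot check the deletion. Cyp24a1, the vitamin D-degrading enzyme and a direct target of the receptor, lay between 66.2 and 599.0 FPKM in WT_Oxarol and between 0 and 0.271 FPKM in the libraries labelled VDRcKO_Oxarol. Depth was read from the steps between low values: the VDRcKO_Oxarol libraries held about 0.0403 to 0.0591 times the reads of the deepest library, WT_PBS replicate 3, and the other 8 held 0.0647 to 0.212 times. These ratios are uncertain by a factor of 2 or more. Library codes fall into 2 series, the first with replicates 1 and 2 of each wild type group, the second with replicate 3 of each and the VDRcKO_Oxarol libraries; the labels do not say what the series are.

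Of the secreted proteins, adipsin had one of the most abundant of these transcripts and leptin the least abundant. Adipoq, which encodes the hormone adiponectin, read 61.1, 52.6 and 179 FPKM in WT_untreated, 48.5, 40.0 and 54.6 in WT_PBS, 36.7, 46.6 and 50.6 in WT_Oxarol, and 82.8, 61.8 and 54.7 in VDRcKO_Oxarol. Cfd, adipsin or complement factor D, read 356, 243 and 1437 FPKM, 268, 150 and 269, 148, 189 and 252, and 587, 324 and 254 in the same order. For both genes replicate 3 of WT_untreated was the highest library. The VDRcKO_Oxarol libraries lay above those of WT_Oxarol without overlap, for Cfd by a narrow margin (254 against 252 FPKM). Retn, resistin, read 113, 67.5 and 212 FPKM untreated, 71.5, 58.1 and 78.7 after PBS, 59.6, 80.2 and 70.9 after Oxarol, and 76.5, 88.7 and 59.0 in VDRcKO_Oxarol. Lep, leptin, the signal of fat stores to the brain, was the lowest, at 3.83, 5.19 and 12.8 FPKM untreated, 5.37, 4.55 and 6.37 after PBS, 4.87, 6.95 and 5.15 after Oxarol, and 13.2, 6.38 and 8.53 in VDRcKO_Oxarol. Retn did not separate any of the groups, and of the Lep values those of VDRcKO_Oxarol overlapped with WT_Oxarol but not, by a narrow margin, with WT_PBS.

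The droplet proteins differed among themselves. Plin1, perilipin 1, the gatekeeper of the droplet surface, read 9.85, 11.1 and 30.8 FPKM untreated, 13.1, 10.2 and 14.9 after PBS, 10.3, 12.7 and 14.2 after Oxarol, and 17.2, 11.8 and 8.76 in VDRcKO_Oxarol. Plin4, a perilipin that coats nascent droplets, read 7.03, 13.6 and 29.0 FPKM, 15.5, 8.98 and 14.7, 11.2, 15.3 and 14.8, and 37.9, 19.7 and 20.1 in the same order. Cidec, which fuses droplets into one, read 38.9, 44.5 and 183 FPKM, then 41.3, 31.9 and 56.2, then 34.4, 54.2 and 40.3, then 102, 58.9 and 60.0. Plin4 and Cidec in VDRcKO_Oxarol lay above every library of WT_PBS and WT_Oxarol, whereas the Plin1 values of these groups overlapped.

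Lipe, hormone-sensitive lipase, read 8.84, 17.7 and 36.2 FPKM untreated, 17.5, 14.4 and 18.1 after PBS, 15.5, 16.4 and 15.8 after Oxarol, and 33.9, 27.0 and 23.5 in VDRcKO_Oxarol. Fabp4, the adipocyte and capillary fatty acid carrier, was one of the strongest signals, at 373, 265 and 800 FPKM, 275, 232 and 307, 226, 295 and 319, and 642, 469 and 439 in that order. Both were higher in every VDRcKO_Oxarol library than in any WT_PBS or WT_Oxarol library. Pparg read 18.6, 15.1 and 29.8 FPKM untreated, 13.9, 10.8 and 18.3 after PBS, 13.4, 19.1 and 16.3 after Oxarol, and 25.3, 18.7 and 22.9 in VDRcKO_Oxarol, so that its range overlapped with WT_Oxarol but not with WT_PBS. Fabp4 and Pparg are not restricted to adipocytes: endothelium and macrophages express Fabp4, and sebocytes express Pparg.

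**Figure D1:**
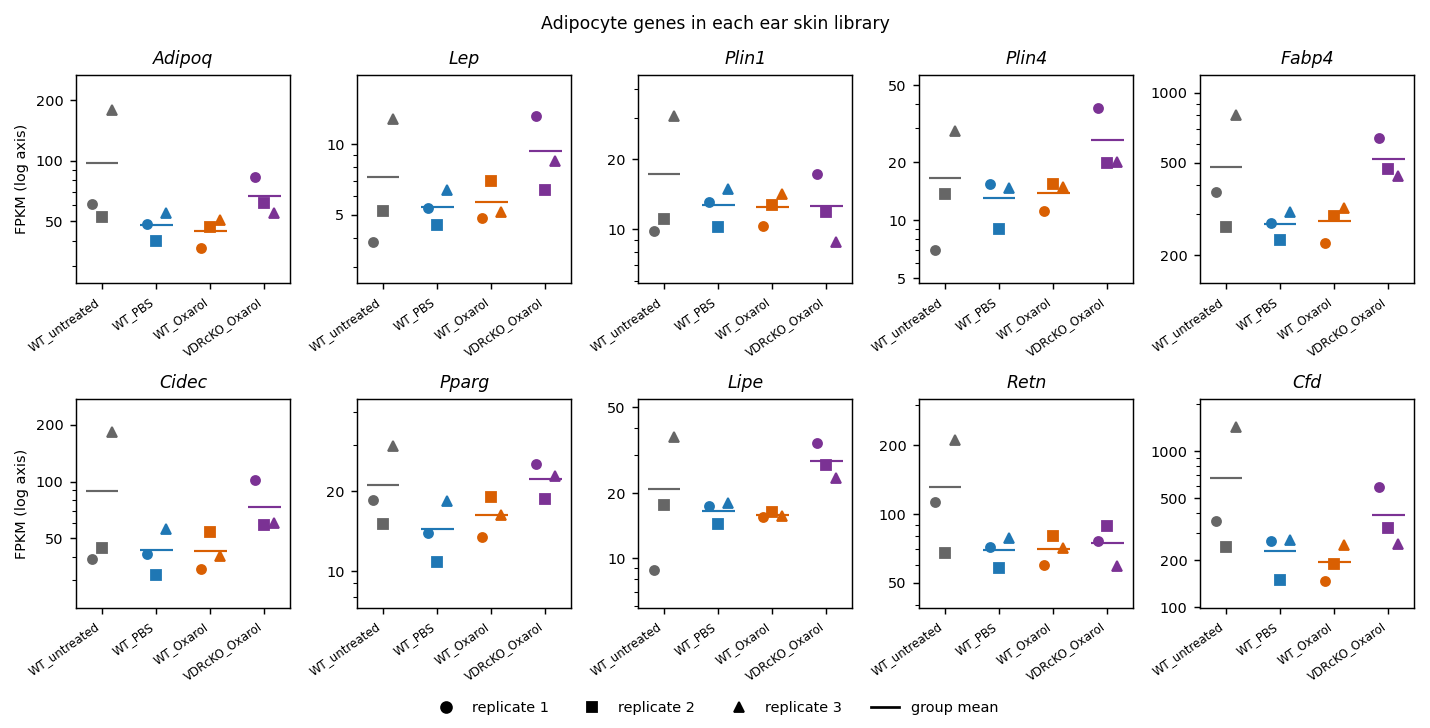
FPKM (log axis, scaled per gene) of the 10 adipocyte genes in each of the 12 libraries by group; symbols are replicates and horizontal lines group means. Replicate 3 of WT_untreated is the highest untreated library in every panel, and the VDRcKO_Oxarol libraries lie above WT_Oxarol without overlap for 6 of 10 genes.

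One untreated library carried much of the spread. In replicate 3 of WT_untreated the 10 genes were 1.77-fold (Pparg) to 4.80-fold (Cfd) the mean of the other untreated libraries, and 8 of 10 were at their highest there of all 12 libraries, against 10.4% of the 14059 genes tested. Lep and Plin4 were the exceptions, with replicate 1 of VDRcKO_Oxarol higher. Adipoq stood 3.15-fold and Cidec 4.38-fold over the other untreated libraries. On the scale of FPKM + 1, at least 1.5-fold was reached by all 10 genes and by 902 of the 14059. Skeletal muscle markers stood high in the same library: the summed level of the 10 muscle genes ranged from 4122 to 9176 FPKM in WT_untreated, with its highest value in replicate 3, and from 1882 to 3667 FPKM in WT_PBS and WT_Oxarol. All 10 muscle genes were detected. Hair follicle markers were raised there too: their sum was 146 FPKM in replicate 3, against 16.2 and 22.3 FPKM in the other untreated libraries, though WT_PBS replicate 3 was higher (256 FPKM). The summed endothelial markers read 59.3 FPKM there, against 37.5 to 46.4 FPKM in the other 8 wild type libraries. The sum of the 11 sebaceous gland markers was lowest there, at 713 FPKM, against 962 to 1410 FPKM in WT_PBS and WT_Oxarol. The part of these other tissues in the level of the adipocyte genes was not tested.

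No difference between Oxarol and PBS was detectable in these genes. In WT_Oxarol against WT_PBS, 0 of 10 passed limma's test at an adjusted p of 0.05, where 0.306% of all genes tested did. Differences in log2(FPKM + 1) ran from -0.20 (Cfd) to 0.18 (Pparg), with a median of 0.01, the same as the median of 0.01 over all genes. Of the 10 genes 0 had an unadjusted p under 0.05, as 7.45% of all genes did, and none of the 10 separated the groups, where 7.53% of all genes lay higher and 8.36% lower without overlap. The intervals are wide. For Adipoq the difference was -0.10 ± 0.38 (SE), with a 95% interval from -0.93 to 0.74, and for Lep it was 0.05 with an interval from -0.73 to 0.82. Pparg had the narrowest, from -0.36 to 0.73. Changes within these bounds were not detectable with 3 libraries a group.

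In VDRcKO_Oxarol against WT_Oxarol the adipocyte genes lay higher, short of the threshold. Again 0 of 10 passed, although 13.1% of all genes tested did; 1 of 10 had an unadjusted p under 0.05, as did 32.2% of all genes. Of the 10 differences 9 were above 0, with a median of 0.67, while 60.0% of all genes were above 0 with a median of 0.08. In 6 of 10 (Adipoq, Cfd, Plin4, Cidec, Lipe and Fabp4) the groups did not overlap, all of them higher, where 27.9% of all genes lay higher and 14.3% lower without overlap. For Cfd the margin was narrow, with 254 FPKM as the lowest VDRcKO_Oxarol value and 252 FPKM as the highest of WT_Oxarol. Fabp4 was higher by 0.88 ± 0.33 (SE) on the log2 scale, or 1.84-fold, with an interval from 0.14 to 1.62 and an adjusted p of 0.102 (limma, Benjamini-Hochberg). Lipe was higher by 0.77 with an interval from -0.03 to 1.57 and an adjusted p of 0.168. Cfd had the highest estimate, 0.92, and the widest interval, from -0.34 to 2.19. Plin4 differed by 0.81, Cidec by 0.74, Lep by 0.60, Adipoq by 0.55 and Pparg by 0.44, with adjusted p between 0.208 and 0.329. Plin1 and Retn lay near 0, at -0.02 and 0.08; with the values rescaled by the median of ratios Retn lay at -0.02 as well.

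Library and fit bear on this comparison. When replicate 3 of WT_untreated, which belongs to neither group, was left out of the fit, the pooled spread shrank and Fabp4 (adjusted p = 0.0207) and Lipe (adjusted p = 0.0404) passed limma's test with the same differences. With only these 2 groups fitted, the same genes passed, at adjusted p of 0.026 and 0.0161 (limma). Without replicate 1 of WT_untreated Lipe alone passed, at 0.0348 (limma), where 3433 of the 14059 genes tested did. Leaving out 1 library at a time, 322 to 3433 of all genes passed, against 1848 in the main fit. The count over all genes with only these 2 groups fitted is not given here. These passes are therefore no result about the adipocyte genes. With library series as a term, the median of the 10 differences was 0.17 and Fabp4 differed by 0.45 ± 0.29 (SE, adjusted p = 0.415, limma). The second series holds a single WT_Oxarol library, replicate 3, so it gives no test of its own. Leaving out replicate 1 of VDRcKO_Oxarol, the highest library of its group for every one of the 10 genes but Retn, gave a median of 0.44.

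**Figure D2:**
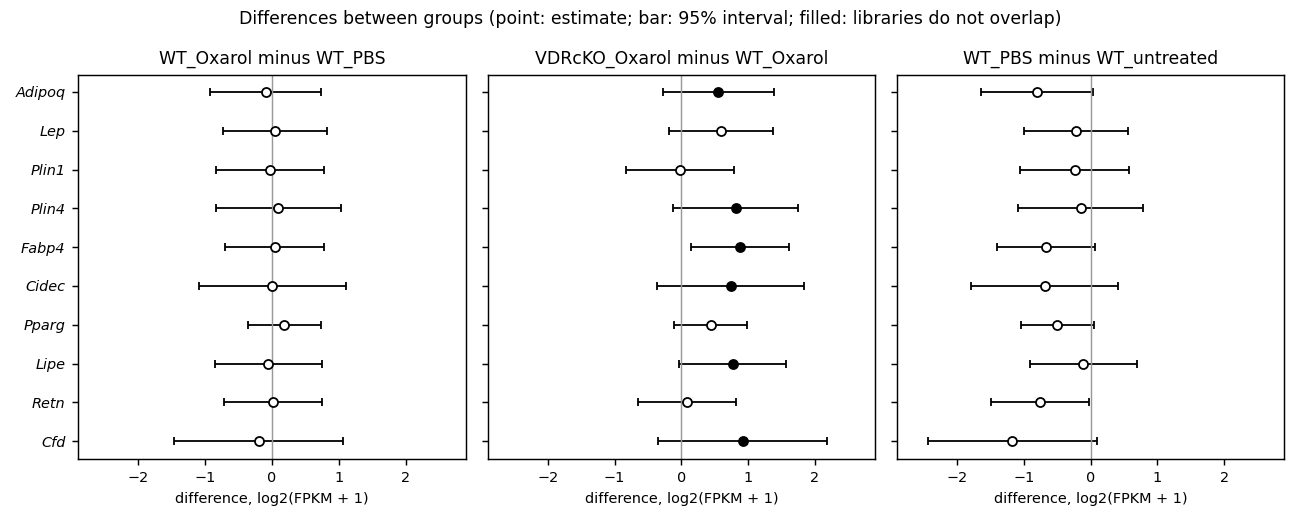
Differences in log2(FPKM + 1) of the 10 genes in WT_Oxarol minus WT_PBS, VDRcKO_Oxarol minus WT_Oxarol and WT_PBS minus WT_untreated; points are estimates, bars 95% intervals from the fit of 12 libraries, and filled points mark genes whose libraries do not overlap. The estimates lie around 0 on the left, above 0 for 9 of 10 genes in the middle and below 0 for all 10 on the right, and no gene passed the adjusted threshold.

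Against WT_PBS, the VDRcKO_Oxarol libraries gave a like picture; the comparisons share the VDRcKO_Oxarol libraries, so they are no separate evidence. None of the 10 passed (16.3% of all genes did), 2 of 10 had an unadjusted p under 0.05 (34.3% of all genes), and 7 of 10 lay higher without overlap and 0 lower, where 31% and 16.4% of all genes did. Margins were narrow for Adipoq (54.7 FPKM at the lowest in VDRcKO_Oxarol against 54.6 FPKM at the highest in WT_PBS), Lep (6.377 against 6.374) and Pparg (18.7 against 18.3). Fabp4 differed by 0.92 (adjusted p = 0.0827, limma) and Plin4 by 0.91 (adjusted p = 0.155, limma). Pparg, with an interval from 0.08 to 1.17, differed by 0.62 (adjusted p = 0.105, limma). The median was 0.68. Plin1, at -0.05, was again the lowest.

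Markers of several other cell types were higher in VDRcKO_Oxarol as well. Their counts stand beside the 13.1% of all genes that passed in this comparison, a share that those of endothelium, sebaceous gland and epidermis lie near. Against WT_Oxarol, 11 of 13 hair follicle markers tested rose, with a median difference of 3.69 and Krt25, a keratin of the inner root sheath, at 28.4 to 124 FPKM against 2.57 to 7.70 FPKM. Of 9 cartilage markers 5 rose, among them Col2a1, the main cartilage collagen, by 1.91 ± 0.23 (SE, adjusted p = 0.00303, limma). Macrophage and monocyte markers rose in 5 of 10, with Emr1, the gene of F4/80, by 0.97, and Lyz2, lysozyme, by 0.96. Fibroblast markers rose in 4 of 10, with Col1a1, a chain of type I collagen, by 1.90, and endothelial markers in 2 of 10 (Vwf and Pecam1). Among sebaceous markers Krt79 rose and Soat1 fell, 1 of 10 epidermal markers (Ivl) rose, and 0 of 10 muscle markers passed limma's test (1 had an unadjusted p under 0.05), with a median of 0.42. The summed macrophage markers ran from 669 to 885 FPKM in VDRcKO_Oxarol and from 380 to 490 FPKM in WT_Oxarol, without overlap. The summed adipocyte genes ran from 951 to 1617 FPKM and from 560 to 799 FPKM. The summed endothelial markers, whose cells share Fabp4, ran from 58.4 to 59.9 FPKM and from 37.5 to 45.2 FPKM. The part of these cells and of depth in the adipocyte values was not tested. In WT_Oxarol against WT_PBS, of all the markers of other cell types 1 passed, the epidermal keratin Krt1, which rose by 1.71.

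**Figure D3:**
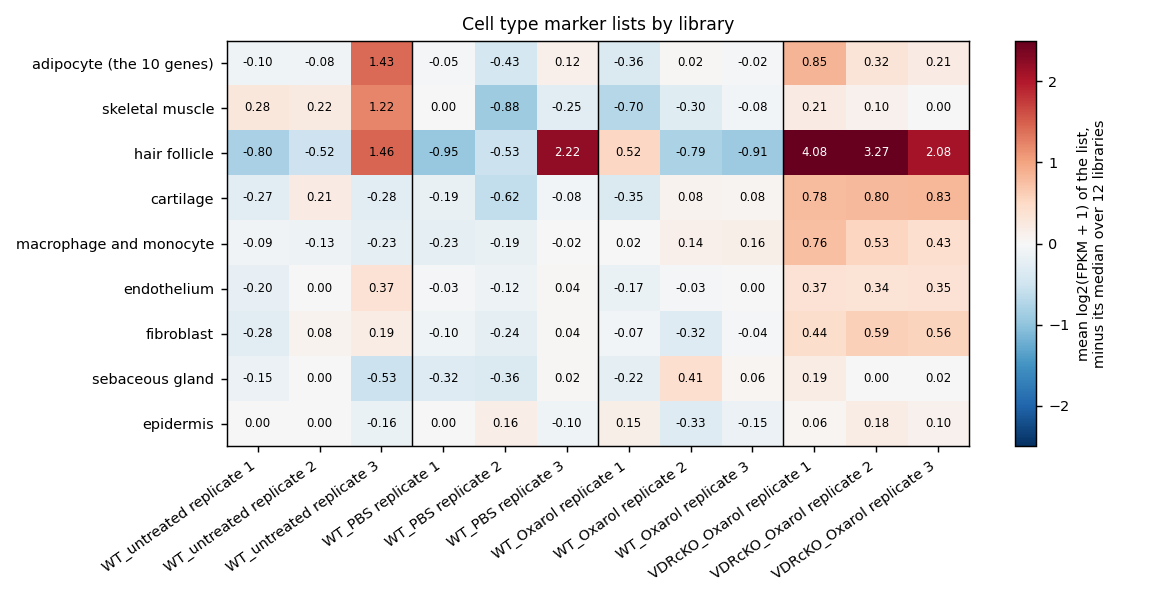
Mean log2(FPKM + 1) of each marker list in each library, minus the list's median over the 12 libraries (colour and printed value). The row of the 10 adipocyte genes is highest in replicate 3 of WT_untreated (1.43), where hair follicle (1.46) and muscle (1.22) are also high, and next in replicate 1 of VDRcKO_Oxarol (0.85), where hair follicle markers peak (4.08).

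Against untreated ears the treated wild type groups had lower estimates, short of the threshold, and replicate 3 of WT_untreated set much of their size. In WT_PBS against WT_untreated 0 of 10 passed (0.00711% of all genes, 1 gene, did), all 10 differences were below 0, and the median was -0.59. Without replicate 3 of WT_untreated the median was -0.10, and the genes went both ways: Cfd lay at -0.41, Retn at -0.34 and Adipoq at -0.26, Lep at 0.22, Plin1 at 0.25, Plin4 at 0.34 and Lipe at 0.37. Retn had the smallest adjusted p, 0.525 (limma), at -0.76 ± 0.33 (SE), and it was the only one of the 10 with an unadjusted p under 0.05, where 9.33% of all genes had one. None of the 10 separated these groups, where 5.6% of all genes lay higher and 7.43% lower without overlap. In WT_Oxarol against WT_untreated 0 of 10 passed (1.31% of all genes did), 3 of 10 had an unadjusted p under 0.05 (17.1% of all genes), and all 10 were again below 0 with a median of -0.48. It was -0.02 without that library, with Cfd at -0.61, Adipoq at -0.35 and Retn at -0.32, and with Plin1 at 0.22, Lep at 0.27, Lipe at 0.31 and Plin4 at 0.44. Only Adipoq lay lower without overlap there, at a difference of -0.90, and no gene of the 10 lay higher, where 9.85% of all genes lay lower and 8.97% higher without overlap. Its highest WT_Oxarol value (50.6 FPKM) sat just below its lowest untreated value (52.6 FPKM). These comparisons share the untreated libraries.

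In VDRcKO_Oxarol against WT_untreated 0 of 10 passed, where 19% of all genes did, 0 of 10 had an unadjusted p under 0.05 (36.2% of all genes), and the median was 0.09. None of the 10 separated these groups, where 24.4% of all genes lay higher and 13.5% lower without overlap. Without replicate 3 of WT_untreated the median was 0.54 and 3 of 10 passed limma's test: Plin4 by 1.25 (adjusted p = 0.0325), Lipe by 1.09 (adjusted p = 0.0168) and Lep by 0.87 (adjusted p = 0.0418). Leaving out 1 library at a time, 1168 to 2896 of the 14059 genes tested passed in this comparison. Without replicate 2 of WT_untreated 1 of 10 passed, Retn, lower by 1.06 on the log2 scale (difference -1.06, adjusted p = 0.0265, limma). Ordered by mean FPKM, VDRcKO_Oxarol was highest for Lep, Plin4, Fabp4, Pparg and Lipe, and WT_untreated for Adipoq, Cfd, Cidec, Retn and Plin1; WT_PBS or WT_Oxarol was lowest for every gene. No neighbouring groups in any of these orders differed at the threshold, with the smallest adjusted p 0.174 (limma), for Retn in WT_untreated over VDRcKO_Oxarol.

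Set against Adipoq within each library, the other genes did not keep one proportion. Fabp4 stood at 7.59 to 8.03 times Adipoq in VDRcKO_Oxarol, 6.17 to 6.32 times in WT_Oxarol, 5.62 to 5.79 times in WT_PBS and 4.46 to 6.11 times in WT_untreated. Its VDRcKO_Oxarol proportions lay above all 9 wild type libraries, and within each treated group they were narrow although the FPKM itself varied. Plin1 stood at 0.256 to 0.273 times Adipoq in WT_PBS and 0.272 to 0.282 times in WT_Oxarol, but at 0.161 to 0.211 times in WT_untreated and 0.160 to 0.208 times in VDRcKO_Oxarol. The low and the high Plin1 proportions did not overlap, and libraries of both series were on each side in the wild type. Lep was 0.0627 to 0.0987 times Adipoq untreated and 0.102 to 0.160 times in the other groups, without overlap. Retn ran from 0.924 to 1.44 times Adipoq in VDRcKO_Oxarol and from 1.40 to 1.72 times in WT_Oxarol. Cfd ran from 4.65 to 7.09 times in VDRcKO_Oxarol and from 4.04 to 4.99 times in WT_Oxarol, overlapping. These proportions are a description with no test, and they show unequal levels, not which of the genes differed.

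**Figure D4:**
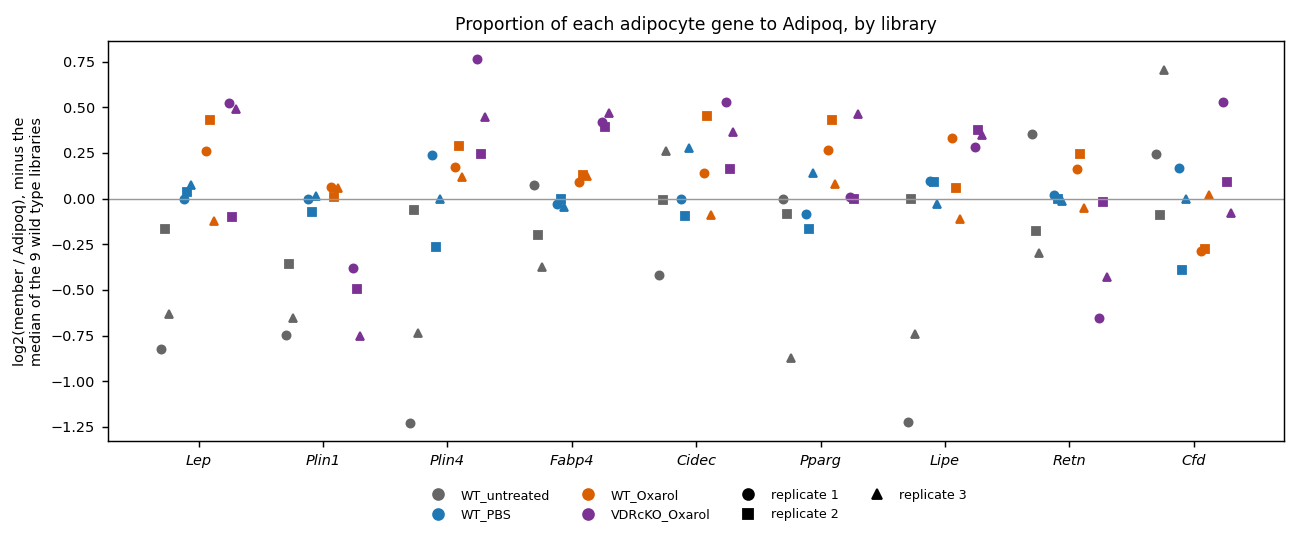
Log2 of each gene's FPKM over that of Adipoq in the same library, minus the median of the 9 wild type libraries; colours are groups and symbols replicates. Plin1 falls into a low set (WT_untreated, VDRcKO_Oxarol) and a high set (WT_PBS, WT_Oxarol), and Fabp4 in VDRcKO_Oxarol lies above all wild type libraries.

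Over the 12 libraries all 9 genes correlated with Adipoq in log2(FPKM + 1), from Pearson's r of 0.65 for Plin4 to 0.99 for Cfd (two-sided permutation test, p adjusted over the 9 relations from 0.0245 to 4.5e-05). The raw p for Cfd and Fabp4 was 1e-05, the smallest that 100000 permutations can give. Group was not held fixed in the permutations, so shifts shared by the libraries of a group also count toward these p-values. Spearman's rho was 0.93 for Cfd (adjusted permutation p = 0.00027) and for Fabp4 (adjusted permutation p = 0.000315), 0.36 for Plin1, 0.58 for Lep and 0.59 for Plin4, of which these last 3 missed the threshold. Much of this rested on the extreme libraries. Without replicate 3 of WT_untreated and replicate 1 of VDRcKO_Oxarol, the farthest from the Adipoq median, r stayed past the threshold for Cfd (0.95, adjusted permutation p = 0.00072) and Fabp4 (0.84, adjusted permutation p = 0.0117). It was 0.72 for Pparg and 0.70 for Retn, each with an adjusted permutation p of 0.0555, 0.64 for Cidec, and 0.27 or less for Plin4, Lep, Lipe and Plin1. Within the first library series (n = 6) only Cfd passed an exact permutation test, with r = 0.95 and an adjusted p of 0.0375, and Lipe had r = -0.49. Within the second (n = 6), where WT_untreated replicate 3 lies, r ran from 0.69 for Plin4 to 0.99 for Cfd, and 7 of 9 passed; Retn, with an adjusted exact permutation p of 0.0563, and Plin4, with 0.111, did not.

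The untreated libraries also differed from each other by gene composition. In replicate 1 of WT_untreated, Lipe and Plin4 were lower than in replicate 2, by -0.93 and -0.86 in log2(FPKM + 1), while Retn was higher by 0.74, Cfd by 0.55 and Fabp4 by 0.49. Over 12060 genes with a transcript in GENCODE vM21, the median of the same difference went from 0.15 in the quintile of genes with the lowest GC content to -0.35 in the quintile with the highest, and was 0.19 in the quintile of the shortest transcripts. Lipe (55.6% GC, 3713 bases) and Plin4 (55.9% GC, 5756 bases) are long and in the GC quintile below the highest, whose median was -0.17. Fabp4 (40.3% GC, 896 bases) is short and GC-poor. Plin1 (56.9% GC) and Cidec (56.5% GC) are in the highest GC quintile and differed by -0.16 and -0.19. Adipoq (47.5% GC), Pparg (50.2% GC) and Lep (48.7% GC) differed by 0.21, 0.28 and -0.36. Cfd is GC-rich at 58.4% but short at 922 bases. Both Cfd and Retn (49.3% GC, 1139 bases) are in the quintile of the shortest transcripts. In VDRcKO_Oxarol against WT_Oxarol the median over all genes went from 0.01 in the lowest GC quintile to 0.23 in the highest. Fabp4, in the lowest quintile, differed by 0.88. In the highest, Plin1 differed by -0.02, Cidec by 0.74 and Cfd by 0.92. The part of GC content and of transcript length in the adipocyte values was not tested.

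Of the 111 genes of pathways and families around these genes, 11 passed limma's test in VDRcKO_Oxarol against WT_Oxarol. An unadjusted p under 0.05 was reached by 29 of them. Over all genes tested the shares were 13.1% and 32.2%, so these totals lie near the background. Of 12 further lipid droplet genes 0 passed limma's test (1 had an unadjusted p under 0.05); the median was 0.03, and Plin2, the widely expressed perilipin, differed by 0.21. Plin3 differed by 0.09 and Plin5 by -0.23, so that no member of the perilipin family of 5 passed. Of 12 lipolysis genes 0 passed (3 had an unadjusted p under 0.05); Pnpla2, adipose triglyceride lipase, differed by 0.84 (adjusted p = 0.0674, limma) at 29.4 to 40.9 FPKM against 16.1 to 22.1 FPKM. Of 14 genes of fatty acid uptake and triglyceride synthesis 0 passed (4 had an unadjusted p under 0.05), with a median of 0.38; Lpl, lipoprotein lipase, differed by 0.75 at 51.3 to 67.1 FPKM against 30.2 to 35.6 FPKM. Of 13 genes of fatty acid synthesis 3 rose and 1 fell. Elovl5, an elongase of polyunsaturated fatty acids, rose by 0.84, Fasn, fatty acid synthase, by 0.67 and Me1, malic enzyme, by 0.61, whereas Elovl6, an elongase of saturated chains, fell by 0.74 on the log2 scale. All 4 are also expressed outside fat.

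Among 12 adipogenic transcription factors 1 passed, Cebpa, which rose by 1.01 ± 0.16 (SE, adjusted p = 0.00765, limma). It read 42.3, 45.9 and 55.4 FPKM in VDRcKO_Oxarol and 17.7 to 26.9 FPKM in WT_Oxarol, a separation that Pparg, its partner in adipocyte differentiation, did not show; Cebpa is also a gene of keratinocytes and myeloid cells. Unlike the 10 adipocyte genes, it was not high in replicate 3 of WT_untreated (27.3 FPKM, against 23.6 and 27.2 FPKM in the others). Of 19 other adipocyte-enriched genes 1 passed, Cav1, caveolin 1, which rose by 0.54 and is shared with endothelium. Of 12 genes of adipocyte precursors 2 rose, Pdgfrb, a receptor of mural cells and fibroblasts, by 1.02 and Icam1 by 0.44. Of 11 adipokine receptors C3ar1, a complement receptor of myeloid cells, rose by 0.77 and Cdh13, T-cadherin, which binds adiponectin, fell by 0.44 on the log2 scale. Of 8 brown and beige fat genes tested 0 passed (1 had an unadjusted p under 0.05), and Ucp1, the uncoupling protein that defines brown fat, was listed at 0 to 0.138 FPKM in all libraries. In the fatty acid binding protein family Fabp6 fell by 1.28 on the log2 scale. Neither Cidea nor the resistin relatives Retnla and Retnlg passed, Retnla differing by 1.66 (adjusted p = 0.0722, limma). In WT_Oxarol against WT_PBS 0 of the 111 genes of these pathway and family lists passed limma's test, where 0.306% of all genes tested did. An unadjusted p under 0.05 was reached by 6 of the 111, and by 7.45% of all genes.

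The genes whose pattern over the 12 libraries was most like the mean of the 10, each scaled to mean 0 and SD 1, were Eepd1 (Pearson's r = 0.96), Gpr116 (0.96), Gpx3 (0.96), Mrap (0.95), Igfals (0.95), Chrdl1 (0.95), Slc1a3 (0.95), Pfkfb1 (0.95), A530016L24Rik (0.95) and Gbp10 (0.95). The values are descriptions; 76 of the other genes tested had r of at least 0.9. Gpx3, a secreted glutathione peroxidase, read 759 FPKM in replicate 3 of WT_untreated and 145 to 540 FPKM elsewhere. Mrap, an accessory protein of the ACTH receptor, read 28.8 FPKM there and 4.87 to 11.3 FPKM elsewhere. The order depended on that library: without it the most alike were Icam2 (r = 0.99), Anxa6 (0.95) and Gbp6 (0.95), and only 1 of the 10 names, Gbp10, was shared.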

How the data were processed

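Ear skin RNA was extracted with TRIzol LS and made into libraries with an NEBNext Ultra kit, per the labels' protocols. TopHat2 2.0.8, Bowtie2 2.1.0, Cufflinks 2.1.1 and the mouse build mm9 are named in the submitters' processing notes; what each did, and with which settings, is not given in the sources used here. The authors deposited 1 value per gene and library, taken here as FPKM; the file headers print no unit, and it was inferred from Cufflinks and the values. Strandedness is not given, so overlapping genes cannot be told apart.

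A gene was tested where 3 or more of the 12 libraries reached 1 FPKM (14059 genes, all 10 adipocyte genes among them). limma 3.58.1 in R 4.3.3 was fitted to log2(FPKM + 1) with 4 group means, 8 residual degrees of freedom and a variance trend, and p-values were adjusted by Benjamini-Hochberg over all genes tested, at 0.05, in each of 6 comparisons. Differences on this scale understate changes of low genes. Groups come from the labels; replicate numbers follow accession order and pair nothing. Correlations used 100000 permutations, or exact ones within a series. The fit and the depth estimate were tested on simulated data. Pathway, family and marker genes beyond the 10 are named by the smallest adjusted p in their list in the comparison described, up to 4, and all calls where 4 or fewer passed; the level of Ucp1 and the comparisons by library for Cebpa were chosen after their values were seen. The 10 genes, the lists and the tests were chosen with earlier results of these data known. Alternatives were another pseudocount (0.1), other filters, other scalings, other sets of libraries, and library series as a term. Promoters were matched by symbol; transcript GC content and length came from GENCODE vM21 (85.8% of the genes tested matched by symbol).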

Additional observations from a re-analysis of the deposited data

How the results depend on the processing

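Each comparison was refitted under up to 20 alternatives. Of 1170 recomputed differences of the 10 genes, 69 lay on the other side of 0 from the reported one, and in 0 of these were both beyond 1 standard error from 0; 15 passed the threshold in an alternative, and the report names each setting's genes for VDRcKO_Oxarol against WT_Oxarol and against WT_untreated. Against WT_PBS, 2 of 10 passed with only those groups fitted (Fabp4, adjusted p = 0.0148, and Lipe, 0.0208, limma) and without replicate 3 of WT_untreated (0.0154 and 0.0451), Lipe alone without replicate 1 (0.0414) and Fabp4 alone without replicate 2 (0.0493). Leaving out 1 library at a time gave 0 to 2 of the 10 called in VDRcKO_Oxarol against WT_Oxarol and against WT_PBS, 0 to 3 against WT_untreated, and 0 in the comparisons within the wild type. Leaving out 1 library at a time, Pearson's r with Adipoq ran from 0.63 to 0.84 for Lep, 0.46 to 0.89 for Plin1, 0.62 to 0.80 for Plin4, 0.51 to 0.87 for Lipe and 0.55 to 0.93 for Retn, and each of these 5 missed the adjusted permutation threshold without replicate 3 of WT_untreated.

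Counts over all genes moved more. WT_Oxarol against WT_PBS called 43 genes, 13 to 132 leaving out 1 library, 0 with only those groups and 8 within the first series. VDRcKO_Oxarol against WT_Oxarol called 1848, 283 with library series as a term and 322 (without WT_Oxarol replicate 2) to 3433 (without WT_untreated replicate 1) leaving out 1. VDRcKO_Oxarol against WT_PBS called 2286, 3737 with only those groups, 611 with series as a term and 543 to 3875 leaving out 1. VDRcKO_Oxarol against WT_untreated called 2668, 435 with only those groups, 1109 with series as a term and 1168 to 2896 leaving out 1. WT_Oxarol against WT_untreated called 184, 90 with no filter, 12 with only those groups, 26 in the first series and 34 to 254 leaving out 1. WT_PBS against WT_untreated called 1, 5 with a pseudocount of 0.1, 2 with no filter, 6 with only those groups, 13 in the first series and 1 to 6 leaving out 1. The causes were not tested. With series as a term the median of the 10 was 0.17 against WT_Oxarol, 0.24 against WT_PBS and -0.35 against WT_untreated; in the first series alone it was -0.005 for WT_Oxarol against WT_untreated. No paired analysis was possible because the labels carry no replicate numbers. Depth is known only relative to 1 library, and FPKM tables give no counting error.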

Other observations

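Some other genes of fat metabolism, picked after their values were seen, also stood at their highest in replicate 3 of WT_untreated, as 10.4% of all genes tested did. Thrsp, the lipogenesis regulator Spot 14, read 339 FPKM there and 30.6 to 69.0 FPKM in the other 11 libraries. Adrb3, the β3-adrenergic receptor of fat cells, read 18.7 FPKM against 0.173 to 2.07 FPKM. Gpr81, the lactate receptor of adipocytes, read 8.18 FPKM against 0.509 to 3.16 FPKM. Gpd1, which makes the glycerol phosphate of triglycerides, read 91.6 FPKM against 8.77 to 61.5 FPKM, its lowest in replicate 1 of WT_untreated, where Lipe and Plin4 were also lowest. Not all genes of the lists followed. Cidea, which sebaceous glands also express, was at its lowest in the same library, 102 FPKM against 111 to 180 FPKM elsewhere. Others peaked in VDRcKO_Oxarol above every untreated library: Pck1 (22.6 FPKM against at most 15.7 FPKM untreated), Hilpda (52.8 against 28.4), Plin2 (199 against 155), Fabp5 (247 against 158) and Mgll (87.9 against 68.5). In WT_Oxarol, Hilpda (32.4 FPKM), Plin2 (195 FPKM), Fabp5 (243 FPKM) and Mgll (78.3 FPKM) also peaked above every untreated library. Pck1 did not, at 5.77 FPKM or less. How many genes of the lists went each way was not counted.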
